A study of Homo sapiens with 12 samples.

Results

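The 8 genes described here encode the YTH and IGF2BP readers of N6-methyladenosine (m6A), the proteins that bind this methyl mark on RNA. They were chosen by name and found in the peak lists by their gene numbers, and 7 of the 8 carried at least 1 m6A peak of their own among the 10536 genes named in the lists. The 7 genes held 62 of 81380 listed peaks. The readers are usually studied for what they do to other transcripts, whereas these data show where their own transcripts were pulled down by antibodies against m6A.

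YTH proteins hold the methylated base in a pocket of their YTH domain. YTHDF1, YTHDF2 and YTHDF3 are close relatives in the cytoplasm: YTHDF2 is known for recruiting the deadenylase that starts mRNA decay, YTHDF1 has been linked to translation, and YTHDF3 has been reported to work with both. YTHDC1 acts in the nucleus on splicing and export, and YTHDC2 is a helicase best known from meiosis. The IGF2BP proteins bind through KH domains, are known for keeping target mRNAs stable, and IGF2BP1 and IGF2BP3 are mainly fetal proteins that many tumours express again.

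The RNA came from 143B cells, an established human osteosarcoma line, harvested at 48 h after transfection with either siRNAs against ALKBH5, a demethylase that removes m6A, or scrambled siRNA. In MeRIP-seq an antibody against m6A captures RNA fragments, which are then sequenced, and peaks mark the stretches enriched in this pulldown. The 12 samples were 3 pulldowns and 3 inputs per siRNA, and the 6 pulldowns, each with 1 peak list, are used here while the 6 inputs were not analysed here. Replicates 1 and 3 used polyadenylated RNA and replicate 2 total RNA, each number with its own antibody according to the protocol text, although the antibody field repeats that of replicate 1. The labels do not say whether replicates were separate cultures, so SDs and p-values measure only the spread between these samples, which may be technical. That spread includes the differences in RNA type, and by the protocol text in antibody, between replicate numbers. The main test, an exact permutation of 3 against 3 libraries, did not pair them by number.

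Knockdown lists held 17563, 5917 and 18360 peaks (replicates 1, 2 and 3) and scrambled lists 15139, 5677 and 18724. Without read counts the depth of a peak is unknown, and a missing peak cannot be told apart from low RNA or few reads. The lists hold no RNA levels either, so neither the osteosarcoma identity of the cells nor the efficiency of the knockdown was checked through expression. Peaks of the target ALKBH5 covered 0 nt in the 3 knockdown libraries and 210, 0 and 150 nt in scrambled replicates 1, 2 and 3.

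The covered length of a gene is the summed exon length, in nt, of its peaks in 1 library. A region is a set of peaks from any of the lists on one strand whose exon blocks overlap by 1 bp or more, and it is called in a library that has a peak in it. Coordinates follow the lists (hg19) and count from 1. Whether they are coding or untranslated was not determined, because no annotation of that build was used here.

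The readers formed 14 regions. They fell into an order by the number of libraries with a peak: YTHDF1, YTHDF2, YTHDF3 and IGF2BP3 in 6 of 6, YTHDC1 in 5, IGF2BP2 in 4, YTHDC2 in 2 and IGF2BP1 in 0. Among all named genes 23.3% had a peak in every library, and among these 8 genes 4 did. Neighbours in this order differed by 1 or 2 libraries, which was not tested. Transcript length and RNA level, which can bear on such a count, were not measured here. Covered lengths were likewise not divided by transcript length, so they are compared between libraries and not between genes.

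**Figure D1:**
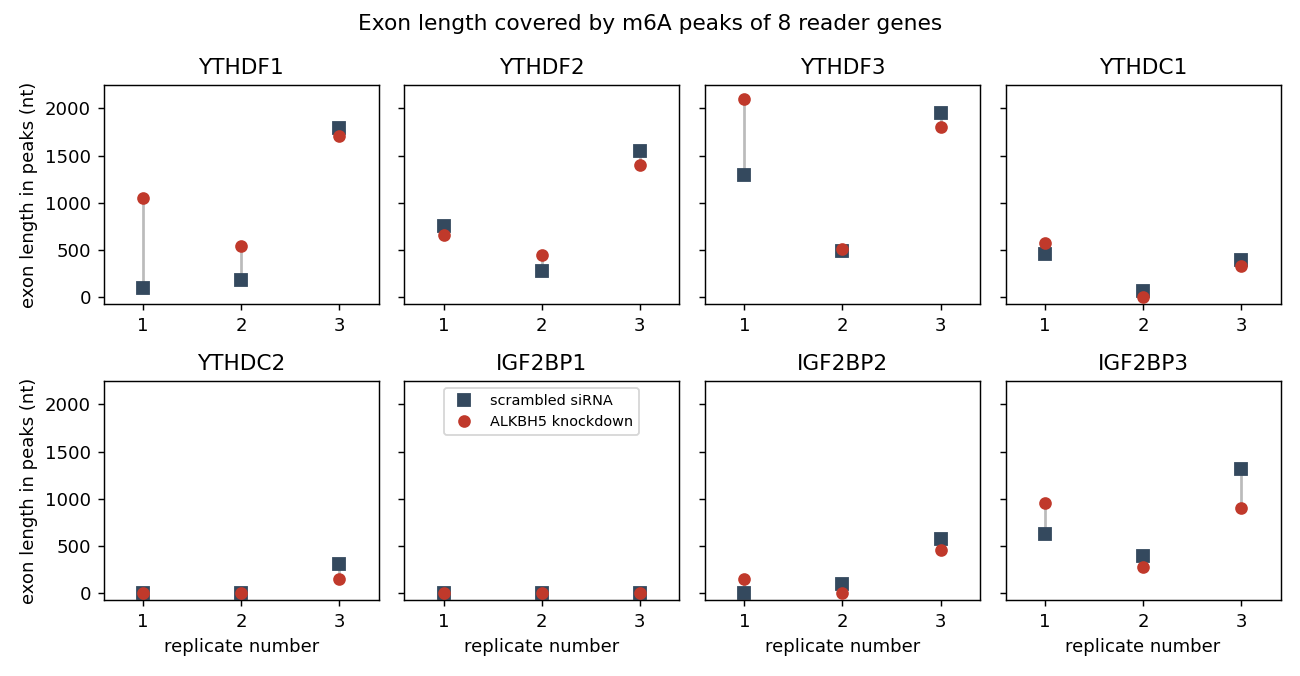
Exon length covered by m6A peaks (y axis, nt) for each reader gene in replicates 1, 2 and 3 (x axis). Circles are ALKBH5 knockdown libraries, squares scrambled libraries, and grey lines join libraries of the same number. YTHDF1 shows the widest gap, 1049 against 90 nt in replicate 1, and in replicate 3 every square of a gene with a peak lies above its circle.

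YTHDF1 (gene number 54915) had the largest difference within a pair of all the readers. In the knockdown its covered length was 1049, 539 and 1705 nt (replicates 1, 2 and 3), against 90, 180 and 1795 nt under scrambled siRNA. Knockdown libraries were therefore longer in replicates 1 and 2 and slightly shorter in replicate 3, and the ranges of the groups overlapped. The group means were 1098 ± 585 nt and 688 ± 959 nt (SD, n = 3 each), and the two-sided exact permutation test gave p = 0.6, where 3 against 3 cannot go below 0.1. The ratio within pairs was 11.7, 2.99 and 0.950 in replicates 1, 2 and 3.

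The YTHDF1 peaks lay on the minus strand of chromosome 20 in 2 regions. The main region, 61827888 to 61835084, was called in all 6 libraries. In replicate 3 it was 1 long peak that crossed a gap of 5552 nt between exon blocks: a block of 1446 nt joined to 199 nt in the knockdown, and 1416 nt joined to 139 nt in the control. These peaks ranked above 80.9% and 69.4% of the peaks of their lists. Knockdown replicate 1 had 3 separate peaks there, of 599, 240 and 210 nt, and the first crossed the same gap. Knockdown replicate 2 had peaks of 329 and 210 nt.

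The scrambled libraries of replicates 1 and 2 each had 1 short YTHDF1 peak, and these did not touch each other. In scrambled replicate 1 the peak covered 90 nt at 61834815 to 61834904 and ranked 13709 of 15139, above only 8.79% of its list. The peak of scrambled replicate 2 covered 180 nt at 61834396 to 61834575 and ranked 933 of 5677, above 83.5%. So although the region was called everywhere, no base of YTHDF1 was covered in all 6 libraries. The most widely shared stretch was 120 nt at 61834456 to 61834575, covered in every library except scrambled replicate 1. A stretch of 329 nt at 61833769 to 61834097 was covered in 3 knockdown libraries and in scrambled replicate 3. The smaller region, 61826782 to 61827021, was called in replicate 3 alone, with 60 nt in the knockdown and 240 nt in the control.

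**Figure D2:**
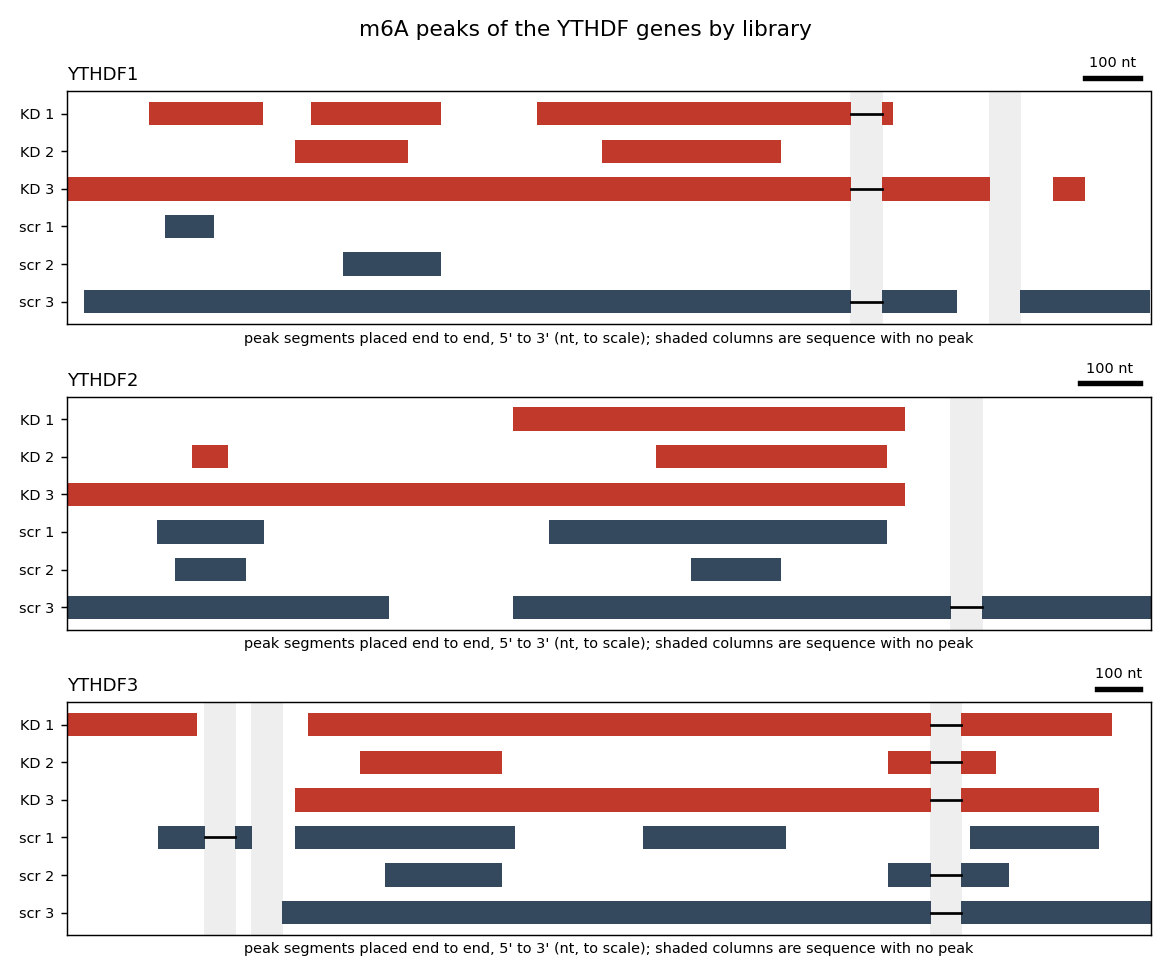
Peaks of YTHDF1, YTHDF2 and YTHDF3 in each library (rows; KD, knockdown; scr, scrambled), with the stretches that hold a peak placed end to end from 5′ to 3′ along the x axis (nt, to scale, bar of 100 nt). Bars are exon blocks, black lines join the blocks of 1 peak, and shaded columns stand for sequence with no peak. The peaks of replicate 3 are the longest or nearly so, and those of replicate 2 lie inside them.

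YTHDF2 (gene number 51441) was called in all 6 libraries at 1 region of chromosome 1, 29069023 to 29095721 on the plus strand. In the knockdown its covered length was 656, 447 and 1400 nt (replicates 1, 2 and 3), against 746, 270 and 1550 nt under scrambled siRNA. In both groups replicate 3 was the highest and replicate 2 the lowest, and the ranges overlapped. The means were 834 ± 501 nt and 855 ± 647 nt (SD, n = 3 each; exact permutation test, p = 1). Knockdown minus scrambled was -90 and -150 nt in replicates 1 and 3 and 177 nt in replicate 2.

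YTHDF2 peaks fell on 2 sites. The downstream site was covered in every library over 150 nt, 29070065 to 29070214. Around it, 566 nt in scrambled replicate 1 and 656 nt in knockdown replicate 1 were called. The upstream site centred on 60 nt at 29069232 to 29069291, which had a peak in every library but knockdown replicate 1. In knockdown replicate 3 a single peak of 1400 nt ran through both sites, while in scrambled replicate 3 the sites were separate peaks of 537 and 1013 nt. The latter crossed 24942 nt of genomic sequence to a second block of 281 nt, the only YTHDF2 peak with 2 blocks. The upstream peak of knockdown replicate 2 covered 60 nt and ranked 5553 of 5917, among the weakest in its list.

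YTHDF3 (gene number 253943) had the best-ranked peaks of the family: 10 of its 12 peaks ranked above the median of their list, against 31 of 62 over all readers. In the knockdown its covered length was 2098, 511 and 1798 nt (replicates 1, 2 and 3), against 1291, 481 and 1947 nt under scrambled siRNA. The ranges overlapped, with means of 1469 ± 843 nt and 1240 ± 734 nt (SD, n = 3 each; exact permutation test, p = 0.7). Replicate 1 gave most of the difference, with 807 nt more in the knockdown. The other pairs differed by 30 and -149 nt.

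The main YTHDF3 region lay on the plus strand of chromosome 8, 64098798 to 64122681, and was called in all 6 libraries. Bases covered in every library fell in a stretch of 270 nt at 64099038 to 64099307 and a stretch of 61 nt at 64122262 to 64122322. Peaks in 5 libraries crossed the same gap of 21937 nt, from 64100303 to 64122241, and the exception was scrambled replicate 1. That library split the region into 3 peaks of 510, 330 and 301 nt, where its knockdown partner had 1 peak of 1798 nt. The 510 nt peak ranked 370 of 15139 in its list. An upstream region, 64081142 to 64081602, was called in replicate 1 alone, in the knockdown over 300 nt and in the control over 150 nt.

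YTHDC1 (gene number 91746), the nuclear reader, was the only reader called in fewer knockdown than scrambled libraries, 2 against 3. In the knockdown its covered length was 569, 0 and 331 nt (replicates 1, 2 and 3), against 450, 61 and 390 nt under scrambled siRNA. The call that was missing, in knockdown replicate 2, stood opposite a control peak of 61 nt that ranked 4912 of 5677. The means were 300 ± 286 nt and 300.3 ± 209 nt (SD, n = 3 each; exact permutation test, p = 1). Of all genes, 26.1% were called in more knockdown libraries and 17.1% in fewer.

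The YTHDC1 peaks made 3 regions on the minus strand of chromosome 4. The region at 69199066 to 69203083 was called in 5 libraries, which shared the 61 nt at 69202844 to 69202904. In both libraries of replicate 1 its peak crossed a gap of 3629 nt to a block of 50 nt with identical ends, and covered 389 nt in the knockdown and 359 nt in the control. The control peak ranked 133 of 15139, above 99.1% of its list, and was the best-ranked reader peak. A region at 69215615 to 69215794 held peaks of 180 nt in knockdown replicates 1 and 3 and of 90 nt in scrambled replicate 3. These were weak calls, ranked 16292 of 17563, 13977 of 18360 and 18322 of 18724. The last region, 91 nt at 69179782 to 69179872, was called in scrambled replicate 1 alone.

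YTHDC2 (gene number 64848) was called in replicate 3 alone. Its single region on chromosome 5, 112929065 to 112929456 on the plus strand, covered 151 nt in the knockdown and 301 nt in the control. The control peak crossed a gap of 91 nt and ranked above 54.1% of its list, the knockdown peak above 10.5%. With 4 libraries at 0 nt, the exact permutation test gave p = 1.

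**Figure D3:**
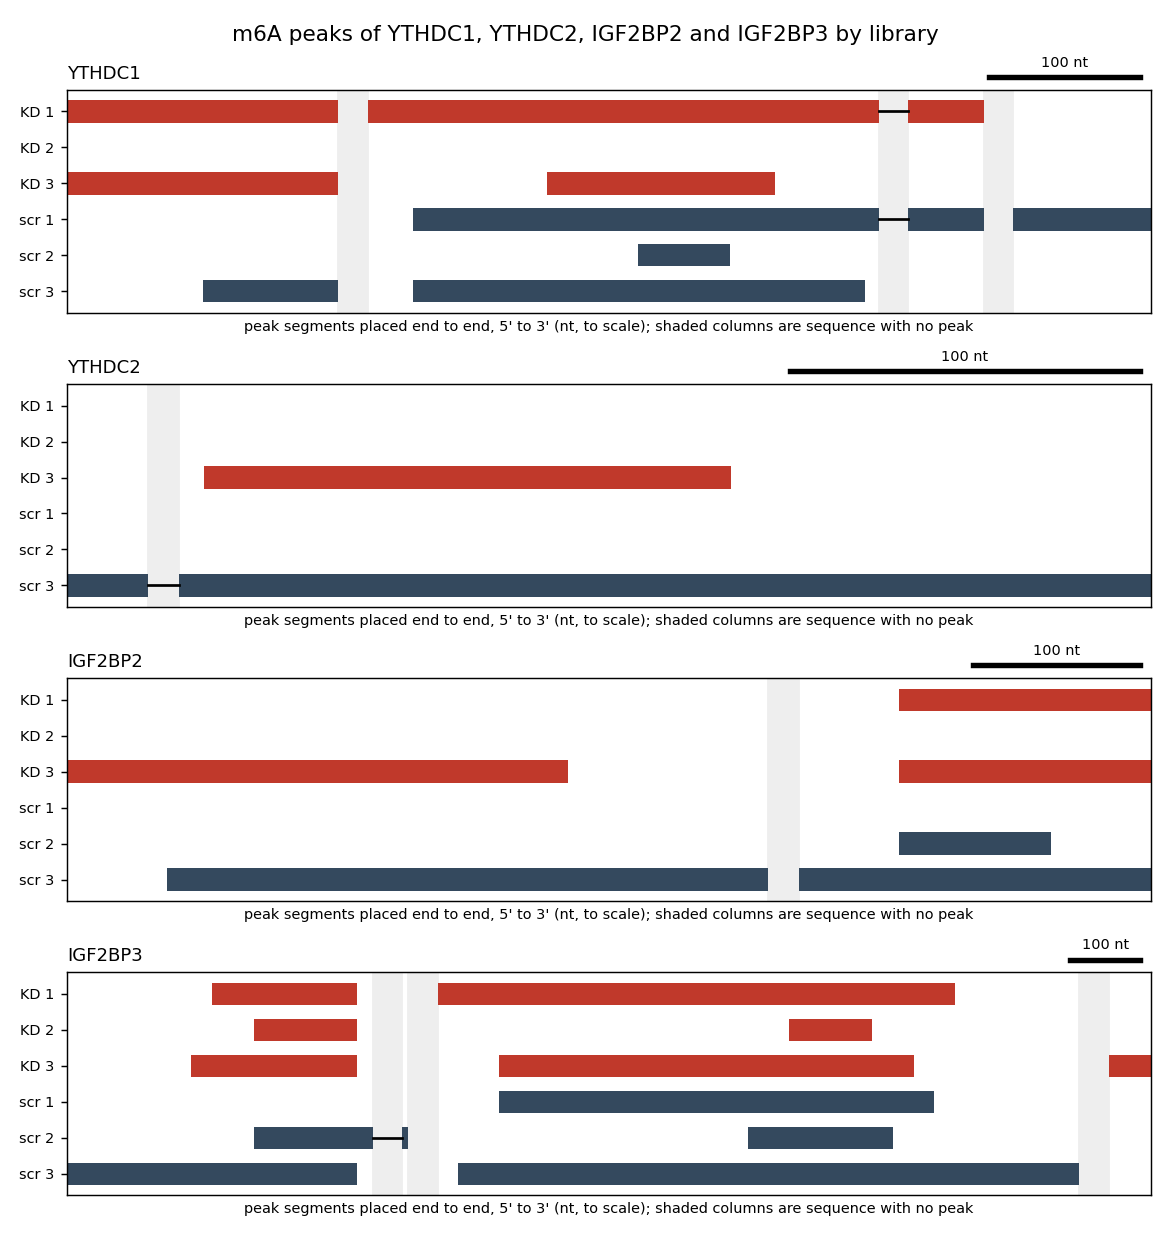
Peaks of YTHDC1, YTHDC2, IGF2BP2 and IGF2BP3 in each library (rows; KD, knockdown; scr, scrambled), with the stretches that hold a peak placed end to end from 5′ to 3′ along the x axis (nt, to scale within a gene, bar of 100 nt). Bars are exon blocks, black lines join the blocks of 1 peak, and shaded columns stand for sequence with no peak. YTHDC2 has peaks in replicate 3 alone, and IGF2BP3 has 2 sites that recur across libraries.

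IGF2BP3 (gene number 10643) was the IGF2BP gene with peaks in every library. In the knockdown its covered length was 957, 271 and 899 nt (replicates 1, 2 and 3), against 628, 390 and 1316 nt under scrambled siRNA. The knockdown was longer in replicate 1 and shorter in replicates 2 and 3. The means were 709 ± 380 nt and 778 ± 481 nt (SD, n = 3 each; exact permutation test, p = 0.9).

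There were 2 recurrent IGF2BP3 sites on the minus strand of chromosome 7. The site at 23454183 to 23455109 was called in all 6 libraries, which shared the 121 nt at 23454482 to 23454602. There the peak was 747, 121 and 599 nt long in the knockdown (replicates 1, 2 and 3) and 628, 210 and 897 nt long under scrambled siRNA. The other site, 23508154 to 23509995, was called in every library except scrambled replicate 1, and its callers shared 150 nt at 23509577 to 23509726. Its peaks covered 210, 150 and 240 nt in the knockdown, and 180 and 419 nt in scrambled replicates 2 and 3. In 4 of these 5 libraries the peak had its 3′ limit at the same base, 23509577, and in scrambled replicate 2 it crossed a gap of 1393 nt to a block of 8 nt. A weak peak of 60 nt at 23351859 to 23351918 was listed in knockdown replicate 3 alone, ranked 17718 of 18360.

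IGF2BP2 (gene number 10644) gave peaks in 4 libraries. In the knockdown its covered length was 151, 0 and 452 nt (replicates 1, 2 and 3), against 0, 91 and 572 nt under scrambled siRNA, so the call was gained in replicate 1 and lost in replicate 2. The means were 201 ± 230 nt and 221 ± 307 nt (SD, n = 3 each; exact permutation test, p = 1). The 4 libraries shared 91 nt on the minus strand of chromosome 3, 185361677 to 185361767. A neighbouring region at 185362876 to 185363296 was called in replicate 3 alone, with 301 nt in the knockdown and 361 nt in the control.

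IGF2BP1 (gene number 10642) had 0 peaks in all 6 lists. This does not show that its RNA was unmethylated, since a transcript at low level can give no peak and RNA levels were not analysed here.

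Some reader sites recurred in every library. Of the 14 regions, 4 were called in all 6 libraries, in YTHDF1, YTHDF2, YTHDF3 and IGF2BP3, where the share over all 21675 regions was 12.7%. With the best-scored 50% of each list the count was 1, and the share over all regions was not computed for that cut. Another 2 regions were called in 1 library, where the share over all regions was 28.9%. These shares describe the lists and carry no test. By base, 8978 nt of reader exon lay in a peak of any library, 602 nt in all 6 and 2213 nt in 1. The matching shares by base over all genes were not computed, so these lengths are descriptive. The 602 nt lay in YTHDF3 (331 nt), YTHDF2 (150 nt) and IGF2BP3 (121 nt).

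Reader peaks also differed by replicate number, which marks RNA type and, by the protocol text, antibody. Summed over the readers, the knockdown lists covered 5480, 1768 and 6736 nt (replicates 1, 2 and 3) and the scrambled lists 3205, 1473 and 7871 nt. The total-RNA libraries of replicate 2 were the lowest of each group, and their lists were also the shortest. They still held 8 and 9 reader peaks, against 10 to 12 in the other libraries. Readers therefore made up a larger part of the total-RNA lists, 0.135% and 0.159% of peaks, against 0.0626% to 0.0661% of the polyadenylated-RNA lists. Whether other genes called in all libraries also took a larger part of these shorter lists was not examined. Kit, RNA type, list length and, by the protocol text, antibody differed together between the replicate 2 libraries and the others and cannot be told apart.

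The comparison at the centre of the series was knockdown against scrambled siRNA, and for the readers no test separated the groups. Over the 7 genes with a peak, the exact permutation p-values ran from 0.6 to 1, and the Benjamini-Hochberg adjusted p was 1 for each, over all 10536 genes tested. This test could call no gene at 0.05: 0 of 10536 genes, 0%, passed before or after adjustment, since its smallest p is 0.1. In 0 of the 7 genes did all knockdown libraries lie above, or all below, every control, as 0.285% and 0.0285% of all genes did. Nor did any have a peak in every knockdown library and no control (0.114% of all genes) or the reverse (0.0285%). No reader was longer in the knockdown in all 3 pairs, a pattern that 13% of all genes showed, and none was shorter in all 3, as 1.42% of all genes were.

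Within replicate 1 most readers had a longer covered length in the knockdown, as did most genes. Of the 6 readers with a peak in either library, 5 were longer and 1, YTHDF2, was shorter, against 80.7% longer and 17.6% shorter over all genes. The ratio of knockdown to control had a median of 1.52 over the 5 readers called in both libraries and of 1.47 over 6483 genes. YTHDF1 stood above the middle range of all genes (1.13 to 2.03) with its ratio of 11.7, and YTHDF2 below it with 0.879.

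Within replicate 2 the readers went both ways. There were 3 longer readers, YTHDF1, YTHDF2 and YTHDF3, and 3 shorter ones, YTHDC1, IGF2BP2 and IGF2BP3, against 52.4% and 43% of all genes. The median ratio was 1.36 over 4 readers and 1.08 over 2531 genes. YTHDF3 was longer by 30 nt, and its ratio of 1.06 lay just below the median of all genes.

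Within replicate 3 all 7 readers with a peak were shorter in the knockdown, where 46.7% of all genes were shorter and 48.2% longer. Their ratios ran from 0.502 (YTHDC2) to 0.950 (YTHDF1), with a median of 0.849, against 1 over 8463 genes. Knockdown minus scrambled was -90, -150 and -149 nt for YTHDF1, YTHDF2 and YTHDF3, -59 and -150 nt for YTHDC1 and YTHDC2, and -120 and -417 nt for IGF2BP2 and IGF2BP3. All of them come from the same 2 libraries, so they are not independent of each other and no test is given. YTHDF2 was also shorter in replicate 1, and YTHDC1, IGF2BP2 and IGF2BP3 in replicate 2, while YTHDF1 and YTHDF3 were longer in both other pairs and YTHDC2 had no peak there.

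**Figure D4:**
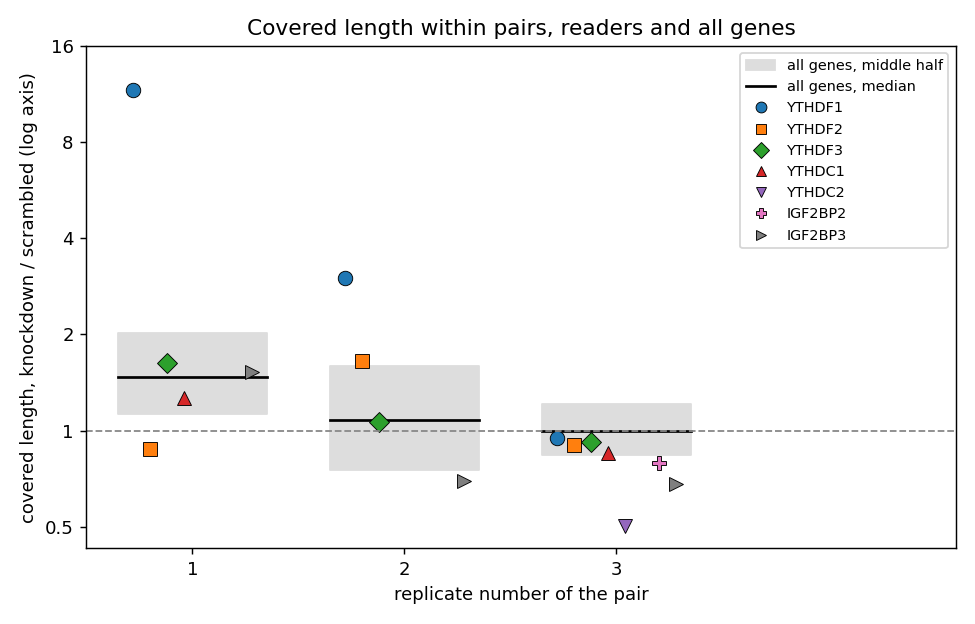
Ratio of covered length in the knockdown to that in the scrambled library (y axis, log scale) within each replicate number (x axis), for the readers with a peak in both libraries (symbols). Grey boxes span the middle range of all genes called in both and black lines their median. The readers scatter around the median in replicates 1 and 2, with YTHDF1 at 11.7 and 2.99, and lie below 1 in replicate 3.

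Gains and losses of whole reader sites were next counted within pairs, beside the share over all regions. In replicate 1, 3 regions were gained (called in the knockdown and not in its control) and 1 was lost, of 10 called in either library, where 30% and 11.3% of all such regions were gained and lost. The gained ones were those of YTHDC1 (180 nt), IGF2BP2 (151 nt) and IGF2BP3 (210 nt) described above, and each was also called in a control library of another number. In replicate 2, 0 were gained and 2 lost, of 7 (all regions 24% and 21.7%), in YTHDC1 (61 nt) and IGF2BP2 (91 nt). In replicate 3, 1 was gained and 0 lost, of 12 (all regions 13.1% and 15.3%), the 60 nt IGF2BP3 region. The same IGF2BP2 site was gained in replicate 1 and lost in replicate 2. No reader region had calls in the 3 knockdown lists and none under scrambled siRNA, or the reverse, where 0.129% and 0.00923% of all regions did.

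For context, other genes of the m6A pathway were read from lists chosen by known role. Writers, the methyltransferase complex and METTL16, had peaks for 9 of 9 genes, 6 of them in all libraries (23.3% of all genes), and 1, CBLL1, was called in more knockdown libraries than controls (3 against 2) and 0 in fewer. Of the 2 erasers, FTO was called in 3 knockdown and 2 control libraries and ALKBH5 in 0 and 2. Of 10 further proteins reported to read m6A, 9 had a peak, 1 of them in all libraries. Of the 10, 3 were called in more and 3 in fewer knockdown libraries, where 26.1% and 17.1% of all genes were. Among them FMR1 was called in 1 knockdown and 0 control libraries, and FXR1, FXR2 and HNRNPC in 0 and 1. The covered length of PRRC2A, named outside the rule after its values were seen, was longer in the knockdown in all 3 pairs, as in 13% of all genes, with 1171, 242 and 1500 nt against 452, 0 and 1350 nt. Of 10 partners of readers in decay, translation and processing, 5 had a peak, 1 of them in all libraries. CPSF6, a cleavage factor, was called in 2 knockdown and 1 control libraries and MEIOC, the meiotic partner of YTHDC2, in 0 and 1. The median difference in libraries called was 0 over the writers, the further readers, the partners and all genes, and -0.5 over the 2 erasers. Within the 8 YTH and IGF2BP readers it was 0 too, with 0 called in more knockdown libraries, 1 in fewer and 6 in equal numbers.

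Genes with the most similar covered lengths were found by the Euclidean distance over the 6 libraries. BTBD3 was nearest to YTHDF2, at 178 nt, with 808, 479 and 1346 nt in the knockdown and 719, 299 and 1494 nt in the controls. SNRNP35 was nearest to IGF2BP3, at 239 nt, and TFPT to YTHDC1, at 138 nt. SIX4 lay 301 nt from YTHDF3 and SS18L1 lay 95.6 nt from IGF2BP2. For YTHDC2, LRRC39 had the same 6 values, shared by 2 genes. MAP4 was nearest to YTHDF1, at 379 nt, with 932, 301 and 1532 nt in the knockdown and 272, 241 and 1713 nt in the controls. The distances were not scaled by covered length, so they are not compared between readers.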

How the data were processed

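Peaks were analysed for 6 m6A pulldown libraries, grouped by their titles. Per the submitters' processing notes, CASAVA 1.8.2, TopHat2 and SAMtools were used on hg19. What each tool did, which peak caller and threshold were used and how inputs were used is not stated in the sources at hand. Peaks were called per library, since each had its own list. The score the authors deposited is read as a p-value from its range, up to 0.011, and was used for ranks and filters inside a list only. Other deposited columns gave positions, exon blocks (a block number per peak) and gene numbers, of which 10500 of 10536 matched a symbol in a RefSeq table of GRCh38.p14, used for names alone.

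All 8 reader numbers matched. Covered lengths, regions, the two-sided exact permutation test over 3 against 3 libraries and the Benjamini-Hochberg adjustment over all genes were computed in Python 3.11.15 with numpy 2.4.6, and tested on simulated data. In the lists, 0 genes had overlapping peaks within a library. The number is a replicate pairing: the protocol in the labels ties it to RNA type and antibody, and deviations from group means across regions correlated within numbers 1, 2 and 3 (0.24, 0.31 and 0.29). The members and lists were chosen with earlier results of these data known. The text names all 8 readers with every region, up to 4 members per pathway list by difference in libraries called (PRRC2A was added after its values were seen), and the nearest gene to each reader. Alternatives were shorter lists, other overlap rules, libraries left out and the replicate block.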

Additional observations from a re-analysis of the deposited data

Results flagged for a closer look

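YTHDF2 was the reader whose covered length moved one way in both polyadenylated-RNA pairs and the other way in the total-RNA pair. Knockdown minus scrambled was -90 nt in pair 1 and -150 nt in pair 3, but 177 nt in pair 2. The total-RNA side is 1 pair of libraries, which also had its own antibody by the protocol text and the shortest lists. The pattern was found by looking through the signs of all the readers, and the share of all genes that show it was not computed. The difference was not tested.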

How the results depend on the processing

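Values are knockdown minus scrambled. The summed covered length of the readers, 478 nt, ranged from -877 to 2322 nt with single libraries or numbers left out, and fell below 0 without scrambled replicate 1 (-10.7), scrambled replicate 2 (-877), knockdown replicate 3 (-559) or replicate 1 (-420); it was 368 nt with the best-scored 50% of each list. As a replicate block (mean within pairs) it was also 478 nt. Exact sign-flip p-values of single genes ran from 0.5 to 1. With 3 pairs the sign-flip test cannot go below 0.25, so it could call no gene at the threshold of the main test. It therefore cannot show whether pairing changes the result. The 4 regions called in all 6 libraries became 1 with the best-scored 50%. With libraries left out, 3 to 5 regions were called in all the libraries that remained. The share over all regions was not computed for these settings. Gained regions ranged from 1 to 6 (4 with all), lost regions from 1 to 4 (3 with all), and regions in all knockdown and no control libraries from 0 to 1. The 6 and the last 1 came from leaving out replicate 3. Leaving libraries out removes pairs and joins the remaining peaks anew, so these counts are not the same quantity as those with all libraries. The best-scored 50% also turned the sign for YTHDF2 (298 nt), YTHDC1 (10 nt) and IGF2BP2 (100.3 nt). With libraries left out, sign changed within these ranges: YTHDF2 -314 to 326 nt, YTHDF3 -150 to 708 nt, YTHDC1 -135 to 150 nt, YTHDC2 -100.3 to 50.3 nt, IGF2BP2 -146 to 156 nt and IGF2BP3 -268 to 200.0 nt. YTHDF1 kept its sign, 106 to 963 nt. Leaving out a single library also leaves the groups with unequal mixes of RNA type and, by the protocol text, antibody. Leaving out both libraries of a number kept the mixes equal and was chosen after seeing the data. The summed difference was then -420, 570 and 1285 nt without replicates 1, 2 and 3 in turn. Peaks extended by 100 bp, a 50% overlap rule, lists of equal size within pairs and positions of 1 gene number changed no region count by more than 1.5 times.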
